A study of Rattus rattus with 24 samples.

Results

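The Sox transcription factors were followed in cultured rat oligodendrocyte precursor cells (OPC) that were given thyroid hormone, quetiapine or both. The members were Sox2, Sox4, Sox5, Sox6, Sox8, Sox9, Sox10 and Sox11, found by their symbols in the probe annotation of an Affymetrix rat genome array. Of these 8 genes, 5 (Sox2, Sox4, Sox6, Sox10 and Sox11) had probe sets that carried their symbol alone, out of 14217 such genes on the array. They held 15 of the 31042 probe sets tested, and where a gene had several, the one with the highest mean over all arrays stood for it. Sox5, Sox8 and Sox9 had no probe set with a single symbol and were not analysed here.

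Sox proteins bind and bend DNA through a shared high mobility group (HMG) box, and they are sorted into subgroups by the likeness of that box. Sox2 belongs to SoxB1, the subgroup of neural stem and progenitor cells, Sox4 and Sox11 to SoxC, Sox5 and Sox6 to SoxD, and Sox8, Sox9 and Sox10 to SoxE. In the oligodendrocyte lineage Sox10 is present from precursor to myelinating cell and activates myelin genes, while Sox5 and Sox6 hold back differentiation, and Sox4 and Sox11 are best known from immature cells.

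The cells were selected with A2B5 microbeads from the cortex of rat pups in the first postnatal week and expanded with PDGF, the mitogen of OPC. They then received vehicle (control), the thyroid hormone T3 at 45 nM, the antipsychotic drug quetiapine at 1 μM, or T3 and quetiapine at those doses (the combination), for 48 or 96 hours, with fresh medium and treatment at 48 hours. All cultures, controls included, were kept in a medium whose B27 supplement brings a little T3, so the T3 groups differed from control by added hormone. There were 24 arrays, 3 biological replicates for each of 8 groups, and every replicate number supplied a culture of every group.

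All levels below are log2 expression values as deposited, normalised by RMA. Each is read for 1 probe set, or for the mean of a gene list, across groups, and genes are not ranked against each other by level. Dim probe sets are only set beside the array medians. Array medians lay between 6.43 and 6.51. The 6 measured OPC markers had a mean log2 expression between 10.48 and 11.45 in all 24 arrays. This cannot by itself check the labelled cell type, as genes are not ranked by level here. Astrocyte markers had a mean between 10.30 and 10.76 in control at 96 hours. Groups were compared with limma over the 12 arrays of a time point, and a gene counted as called where its p, adjusted by the method of Benjamini and Hochberg over all 31042 probe sets, was under 0.05, whatever its fold. Values from another limma fit, in which the replicate number entered as a fixed term (the replicate block), stand beside a result whose call they alter. T3, quetiapine and the combination were each set against the same 3 control arrays of a time point.

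At 96 hours 4 of the 5 measured Sox genes had fallen with the combination, Sox2, Sox4, Sox6 and Sox11, while Sox10 was not called. In that comparison 15.7% of all probe sets were called lower, and 22.1% with the replicate block, which called the same 4. With T3 alone 1 of the 5 fell (Sox2; 6.07% of all probe sets called lower), and 3 with the replicate block (Sox2, Sox4 and Sox11; 14.3%). With quetiapine alone limma called none of the 5 (5.89% of all probe sets were called, 2.24% lower and 3.65% higher), 1 had an unadjusted p under 0.05, and the replicate block called Sox4 and Sox11 lower (9.26%) and Sox10 higher (7.98%). The 4 calls with the combination held in each of the 12 fits that left out 1 array. In RNA from whole cultures, fewer cells that express a gene and less RNA per cell cannot be told apart.

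**Figure D1:**
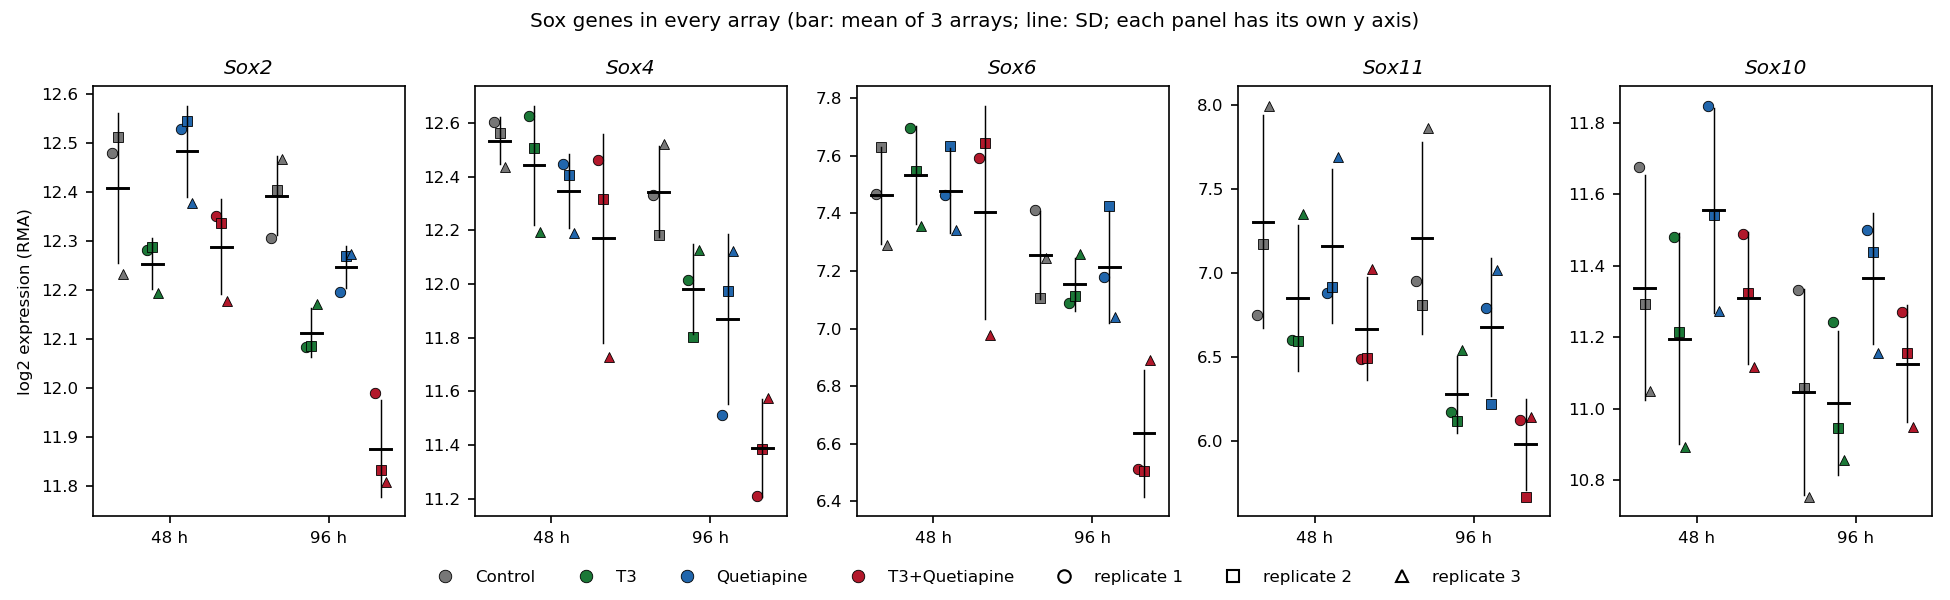
Log2 expression (y axis, RMA) of the 5 measured Sox genes in each of the 24 arrays, by time (x axis) and treatment (colour), with the replicate number as the symbol, bars at the mean of 3 arrays and lines for the SD. The combination at 96 hours gave the lowest group mean for Sox2, Sox4, Sox6 and Sox11, and Sox10 was lowest with T3 at 96 hours.

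Sox2 keeps neural stem and progenitor cells from differentiating and is present in OPC. In the probe set that stood for it, every treated array at 96 hours lay below every control array. Its log2 expression at 96 hours in replicates 1, 2 and 3 was 12.31, 12.40 and 12.47 in control, 12.08, 12.08 and 12.17 with T3, 12.20, 12.27 and 12.27 with quetiapine, and 11.99, 11.83 and 11.81 with the combination. The 3 arrays of the combination lay below all others of the time point, those with T3 came next, and no treatment overlapped with another. With the combination Sox2 fell by 0.52 (standard error 0.0749, adjusted p = 0.000461 from limma), to a fold of 0.699. With T3 it fell by 0.28 (standard error 0.0749, adjusted p = 0.0341), and the difference with quetiapine was −0.15 (95% interval −0.31 to 0.02, adjusted p = 0.313). The call with T3 lay near the threshold: the adjusted p was between 0.0252 and 0.119 with 1 array left out and passed in 5 of 12 such fits. Leaving out replicate 2 or 3 of control, replicate 2 or 3 of quetiapine or any replicate of T3 ended the call. The change itself stayed between −0.32 and −0.24 in the 12 fits.

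At 48 hours Sox2 had levels of 12.48, 12.51 and 12.23 in control, 12.28, 12.29 and 12.19 with T3, 12.53, 12.55 and 12.38 with quetiapine, and 12.35, 12.34 and 12.18 with the combination. Arrays of all 3 treatments overlapped with control, and those with quetiapine lay above all with T3. This difference between quetiapine and T3, 0.23, had an adjusted p of 0.0259 with the replicate block, (0.321 without it). From 48 to 96 hours Sox2 fell in the combination by 0.41 (standard error 0.0791, adjusted p = 0.000875 from limma over all 24 arrays). The change in control over the same time was −0.02 (adjusted p = 0.965).

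Of the relatives of Sox2, Sox1 and Sox3 share its subgroup and Sox21 belongs to SoxB2, which represses in progenitors where SoxB1 activates. These 3 genes were lower with the combination at 96 hours too. Sox3 had levels of 10.10, 9.69 and 10.08 in control, 9.15, 8.45 and 8.76 with T3, 9.64, 9.22 and 9.36 with quetiapine, and 8.80, 8.09 and 8.27 with the combination. All treated arrays lay below the control arrays, and those with T3 overlapped with those of the combination. With the combination it fell by 1.57 (standard error 0.216, adjusted p = 0.000338), and with T3 by 1.17 (standard error 0.216, adjusted p = 0.00637), each in all 12 fits with 1 array left out. With quetiapine the change was −0.55 (adjusted p = 0.176, or 0.00308 with the block).

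Sox1 had levels between 4.44 and 5.61 at 96 hours, below the median of every array, and may lie near background. It fell with the combination by 0.72 (standard error 0.144, adjusted p = 0.00331). Sox21 fell by 0.85 (standard error 0.239, adjusted p = 0.0201), a call lost without control replicate 2 or 3 or combination replicate 2 (adjusted p of at most 0.0819). Over the whole list of other Sox genes, 4 of 10 measured fell with the combination at 96 hours, beside 15.7% of all probe sets called lower. The count was 2 without combination replicate 2 and 4 with the block (22.1% of all probe sets). None rose, and the median change was −0.02, beside 0.02 over all probe sets. The 6 not called, among them the vascular Sox7, Sox17 and Sox18, had changes between −0.03 for Sox12 and 0.19 for Sox15. Like Sox1, these 6 had levels below the median of every array and may lie near background. Their small changes, on which the median of the list rests, are thus no evidence of equal levels. With T3 alone 1 of the 10 fell (6.07% of all probe sets), which became 3 without control replicate 1, and with quetiapine none (2.24%). The block called 3 and 2 lower (14.3% and 9.26%).

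Sox4 and Sox11 of the SoxC subgroup are known from progenitors and young neurons and glia. Sox4 had the lowest values with the combination at 96 hours. Its log2 expression at that time was 12.33, 12.18 and 12.52 in control, 12.02, 11.80 and 12.13 with T3, 11.51, 11.97 and 12.12 with quetiapine, and 11.21, 11.38 and 11.58 with the combination. In the probe set that stood for Sox4, every treated array lay below every control array. There the combination overlapped with quetiapine but not with T3. The fall with the combination was 0.95 (standard error 0.162, adjusted p = 0.00123 from limma), to a fold of 0.516. The change with T3 was −0.36 (adjusted p = 0.189, or 0.0447 by the block), and with quetiapine −0.47 (adjusted p = 0.122, and 0.0185 with the block).

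At 48 hours Sox4 was at 12.60, 12.56 and 12.44 in control, 12.63, 12.51 and 12.19 with T3, 12.45, 12.40 and 12.19 with quetiapine, and 12.46, 12.32 and 11.73 with the combination. Every treatment overlapped with control, and quetiapine and the combination were each lower than control within each replicate number. The change of −0.36 with the combination had an adjusted p of 0.0212 with the block (0.267 without it). From 48 to 96 hours Sox4 fell in the combination by 0.78 (standard error 0.176, adjusted p = 0.00314).

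Sox11, which acts with Sox4 in differentiating neurons and is low in mature cells, had the largest fitted change of the 5 genes with the combination at 96 hours, and the largest SD of the 5 in both control groups. Its log2 expression at 96 hours was 6.95, 6.81 and 7.86 in control, 6.17, 6.12 and 6.54 with T3, 6.79, 6.22 and 7.02 with quetiapine, and 6.13, 5.67 and 6.15 with the combination. Arrays with T3 or the combination lay below all control arrays, and those with quetiapine overlapped with control. In all 8 groups replicate 3 had the highest value. With the combination Sox11 fell by 1.23 (standard error 0.279, adjusted p = 0.00681 from limma), to a fold of 0.428. With T3 the change was −0.93 (standard error 0.279, adjusted p = 0.0546), while the block gave a standard error of 0.150 and an adjusted p of 0.00157. With quetiapine the change was −0.53 (adjusted p = 0.326, and 0.0354 with the block).

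At 48 hours Sox11 was at 6.75, 7.18 and 8.0 in control, 6.60, 6.60 and 7.35 with T3, 6.88, 6.92 and 7.69 with quetiapine, and 6.49, 6.50 and 7.03 with the combination. All groups overlapped, though T3 and the combination were below control within each replicate number. The changes of −0.46 with T3 and −0.64 with the combination had adjusted p values of 0.0254 and 0.00235 with the replicate block (0.664 and 0.318 without it).

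Sox6, which with Sox5 opposes Sox10 at myelin genes and holds precursors back from differentiation, lay apart from control with the combination at 96 hours. Its log2 expression at that time was 7.41, 7.11 and 7.25 in control, 7.09, 7.11 and 7.26 with T3, 7.18, 7.42 and 7.04 with quetiapine, and 6.51, 6.51 and 6.89 with the combination. The 3 arrays of the combination lay below all 9 others, which overlapped with each other. Sox6 fell with the combination by 0.62 (standard error 0.132, adjusted p = 0.00472 from limma), to a fold of 0.651. The changes with T3 and with quetiapine were −0.10 (95% interval −0.39 to 0.19) and −0.04 (−0.33 to 0.25). The other, dimmer probe set of Sox6 had −0.34 with T3 and −0.49 with quetiapine. Neither probe set was called with either compound alone, with or without the block.

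At 48 hours Sox6 was at 7.47, 7.63 and 7.29 in control, 7.70, 7.55 and 7.36 with T3, 7.46, 7.63 and 7.34 with quetiapine, and 7.59, 7.64 and 6.98 with the combination. The groups overlapped, and replicate 3 of the combination was the lowest array. From 48 to 96 hours Sox6 fell in the combination by 0.77 (standard error 0.159, adjusted p = 0.0016). Sox13, the other SoxD gene with a probe set, fell with the combination at 96 hours by 0.56 (standard error 0.162, adjusted p = 0.0224), a call lost without control replicate 1 or combination replicate 2 or 3 (adjusted p of at most 0.0834).

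Sox10, the SoxE factor that drives myelin genes and marks the whole lineage, was not called in any comparison without the replicate block. Its log2 expression at 96 hours was 11.33, 11.06 and 10.75 in control, 11.24, 10.95 and 10.86 with T3, 11.50, 11.44 and 11.16 with quetiapine, and 11.27, 11.16 and 10.95 with the combination. All groups overlapped, and in each of the 8 groups replicate 1 was the highest and replicate 3 the lowest. With the combination the change was 0.08 (95% interval −0.27 to 0.43, adjusted p = 0.763 from limma), and with T3 −0.03 (−0.38 to 0.32, adjusted p = 0.938). With quetiapine Sox10 was above control in all 3 replicates, by 0.17, 0.38 and 0.40, a change of 0.32 (adjusted p = 0.300, and 0.0147 with the replicate block, where the standard error was 0.0739 in place of 0.159).

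At 48 hours Sox10 was at 11.67, 11.29 and 11.05 in control, 11.48, 11.21 and 10.89 with T3, 11.85, 11.54 and 11.27 with quetiapine, and 11.49, 11.32 and 11.12 with the combination. All groups overlapped, and within each replicate number quetiapine gave the highest value. Compared to T3, quetiapine had Sox10 higher by 0.36 at 48 hours and 0.35 at 96 hours, with adjusted p values of 0.00513 and 0.0135 with the block (0.567 and 0.315 without it). The combination had it lower than quetiapine, by −0.25 at 48 hours (adjusted p = 0.0387 with the block, 0.780 without it) and −0.24 at 96 hours (0.0463 and 0.439).

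**Figure D2:**
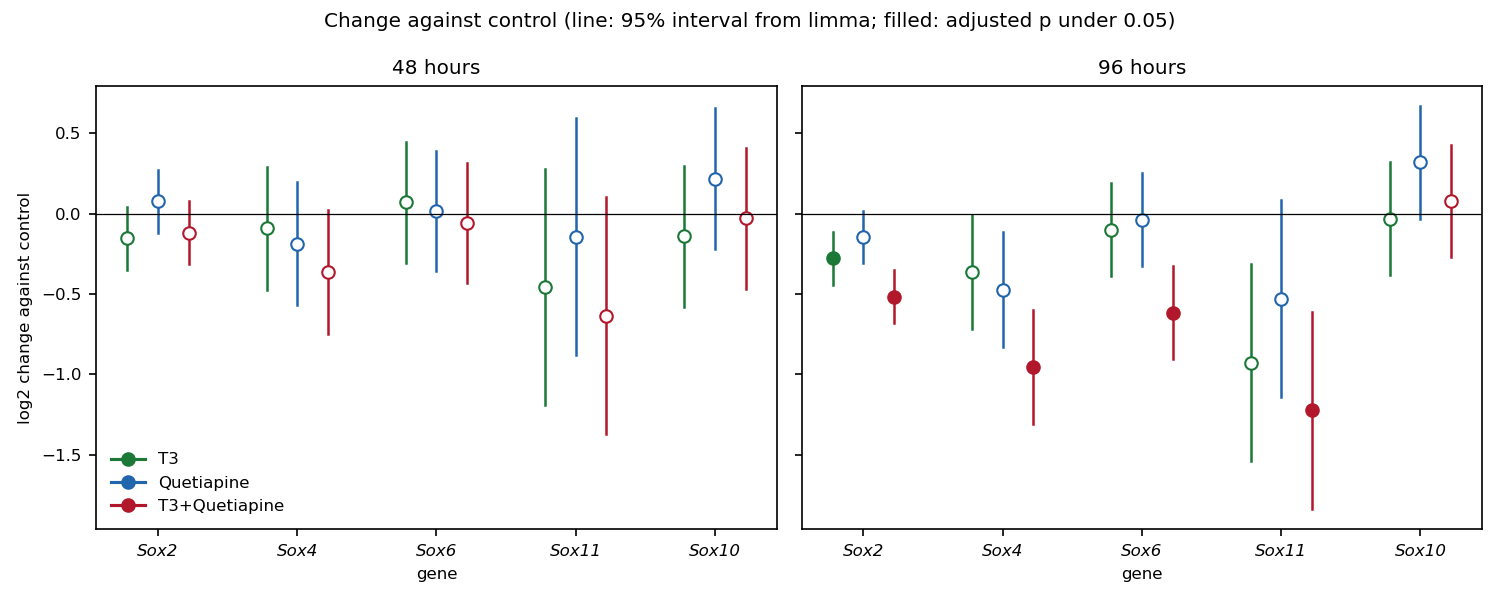
Log2 change against control (y axis) of the 5 Sox genes (x axis) at 48 and 96 hours for T3, quetiapine and the combination, each point with its 95% interval from limma and filled where the adjusted p was under 0.05. The filled points are the combination at 96 hours for Sox2, Sox4, Sox6 and Sox11, and T3 at 96 hours for Sox2.

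The combination was also set against each compound alone at 96 hours. Compared to quetiapine, limma called 2 of the 5 lower (3.79% of all probe sets), Sox2 by −0.37 (standard error 0.0749, adjusted p = 0.0148) and Sox6 by −0.58 (standard error 0.132, adjusted p = 0.0247). Sox2 passed in 8 of 12 fits with 1 array left out and was lost without replicate 2 or 3 of either group (adjusted p of at most 0.0682). Sox6 passed in 9 and was lost without quetiapine replicate 2 or combination replicate 1 or 2 (at most 0.106). With the replicate block all 5 were lower than with quetiapine (11.1% of all probe sets), with changes between −0.24 for Sox10 and −0.69 for Sox11.

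Compared to T3, limma called none of the 5 at 96 hours (1.91% of all probe sets were called), 3 had an unadjusted p under 0.05, and the replicate block called 2 lower (6.57%). These were Sox4 at −0.59 (adjusted p = 0.00969 with the block) and Sox6 at −0.52 (0.0324). Quetiapine compared to T3 gave none of the 5 by limma (2.63% of all probe sets), none with an unadjusted p under 0.05, and Sox10 by the block (5.54% called higher). The interaction asks whether the log2 change with the combination departs from those of T3 and quetiapine added together, and limma called it for none of the 5 at either time, with or without the block. At 96 hours 1 gene, Sox6, had an unadjusted p under 0.05 (−0.48, 95% interval −0.89 to −0.07, adjusted p = 1.00), and 0.0322% of all probe sets were called (0.242% with the block). The interaction in the other Sox6 probe set was −0.03 at 96 hours. At 48 hours none of the 5 had an unadjusted p under 0.05 and 0 probe sets were called. At 96 hours the intervals of the other 4 genes held 0, and the widest, for Sox11, ran from −0.63 to 1.10.

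At 48 hours limma called none of the 5 Sox genes with T3, quetiapine or the combination compared to control, and none had an unadjusted p under 0.05. It called 1.05%, 0.116% and 5.49% of all probe sets in these comparisons, in either direction. The replicate block called Sox11 lower with T3 (5.51% of all probe sets), none with quetiapine (3.58% in either direction), and Sox4 and Sox11 lower with the combination (12.1%). Between the treatments at 48 hours limma called none of the 5, with 1 gene at an unadjusted p under 0.05 for quetiapine compared to T3 (1.63% of all probe sets called) and none for the combination compared to T3 (0.0193%) or to quetiapine (0.947%). The block called Sox2 and Sox10 higher with quetiapine than with T3 (4.45%), Sox10 and Sox11 lower with the combination than with quetiapine (4.17%), and none between the combination and T3 (1.04%).

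Time itself was tested within each treatment over all 24 arrays. From 48 to 96 hours Sox2, Sox4 and Sox6 fell in the combination (3 of 5, with 12.5% of all probe sets called lower, and 19.2% with the block), in each of 24 fits with 1 array left out. Sox11 changed by −0.69 (adjusted p = 0.152, and 0.00333 with the block) and Sox10 by −0.18 (0.561, and 0.0458). In control, T3 and quetiapine cultures limma called none of the 5 between the times (0.0226%, 6.32% and 2.65% of all probe sets), with 0, 2 and 2 at an unadjusted p under 0.05. The block called 1 lower in each (0.86%, 12.1% and 6.15% of all probe sets called lower), Sox10 in control (−0.29, adjusted p = 0.0238), Sox11 with T3 (−0.57, 0.0215) and Sox2 with quetiapine (−0.24, 0.0483).

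The change with the combination was larger at 96 than at 48 hours for Sox2 by −0.40 (standard error 0.112, adjusted p = 0.0393), the 1 member past the test of that difference, with 2.27% of all probe sets called lower (9.46% with the block, which called Sox2 alone). The call was lost without control replicate 3 or combination replicate 1 or 2 at 48 hours and without replicate 2 or 3 of either group at 96 hours (adjusted p of at most 0.104). For Sox4, Sox6 and Sox11 the difference between the times was −0.59, −0.56 and −0.59 (adjusted p = 0.181, 0.155 and 0.543), and for Sox10 0.11 (0.886). With T3 and with quetiapine limma called none of the 5 (0.0483% and 0.106% of all probe sets), none had an unadjusted p under 0.05, and the block called none (0.954% and 1.05%).

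Ordered by group mean, each gene gave its own sequence of the 8 groups. For Sox2, Sox4, Sox6 and Sox11 the combination at 96 hours was last, at 11.88 ± 0.0986 (SD, n = 3), 11.39 ± 0.183, 6.64 ± 0.220 and 5.98 ± 0.271. Their highest means were 12.48 ± 0.0930 for Sox2 with quetiapine at 48 hours, 12.53 ± 0.0863 for Sox4 in control at 48 hours, 7.53 ± 0.172 for Sox6 with T3 at 48 hours and 7.31 ± 0.634 for Sox11 in control at 48 hours. The span from the highest to the lowest group mean was 0.61, 1.14, 0.90 and 1.32 for Sox2, Sox4, Sox6 and Sox11, and 0.54 for Sox10. Neighbours in these orders overlapped in their arrays throughout, except that Sox2 at 96 hours lay apart between quetiapine and T3 and between T3 and the combination, and Sox6 between T3 and the combination.

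The other probe sets of Sox2, Sox4 and Sox6 were fitted as well. At 96 hours 10 of the 15 Sox probe sets fell with the combination (12 with the replicate block) and none rose. In that comparison 15.7% of all probe sets were called lower (22.1% with the block). Of the 7 for Sox4, 5 fell, with changes between −0.37 and −1.18, while the 1 with the lowest mean (5.38) had 0.03 (adjusted p = 0.857) and a correlation of 0.134 with the standing probe set over the 8 group means. The other 5 of Sox4 correlated with it at 0.920 to 0.989. Of the 4 for Sox2, 2 fell, by 0.52 and 0.71, and the other 2 had −0.49 (adjusted p = 0.249) and −0.18 (0.129). Both for Sox6 fell, by 0.62 and 0.86. With the single compounds at 96 hours, the 4 Sox2 probe sets changed by −0.52 to −0.12 with T3 and −0.15 to 0.09 with quetiapine. At that time arrays with T3 and with quetiapine overlapped with control in every Sox2 probe set but the standing one. In the Sox2 probe set with a mean of 9.65 the combination overlapped with control too. The 7 Sox4 probe sets changed by −0.59 to 0.11 with T3 and −0.65 to −0.02 with quetiapine at 96 hours. None was called without the block, which called 3 lower with each compound (14.3% and 9.26% of all probe sets). In those with means of 9.02, 8.84, 6.69 and 5.38, arrays with T3 and with quetiapine overlapped with control. In that with a mean of 7.42 those with T3 did. Probe sets of a gene share its RNA and its arrays and are not replicates of a treatment.

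**Figure D3:**
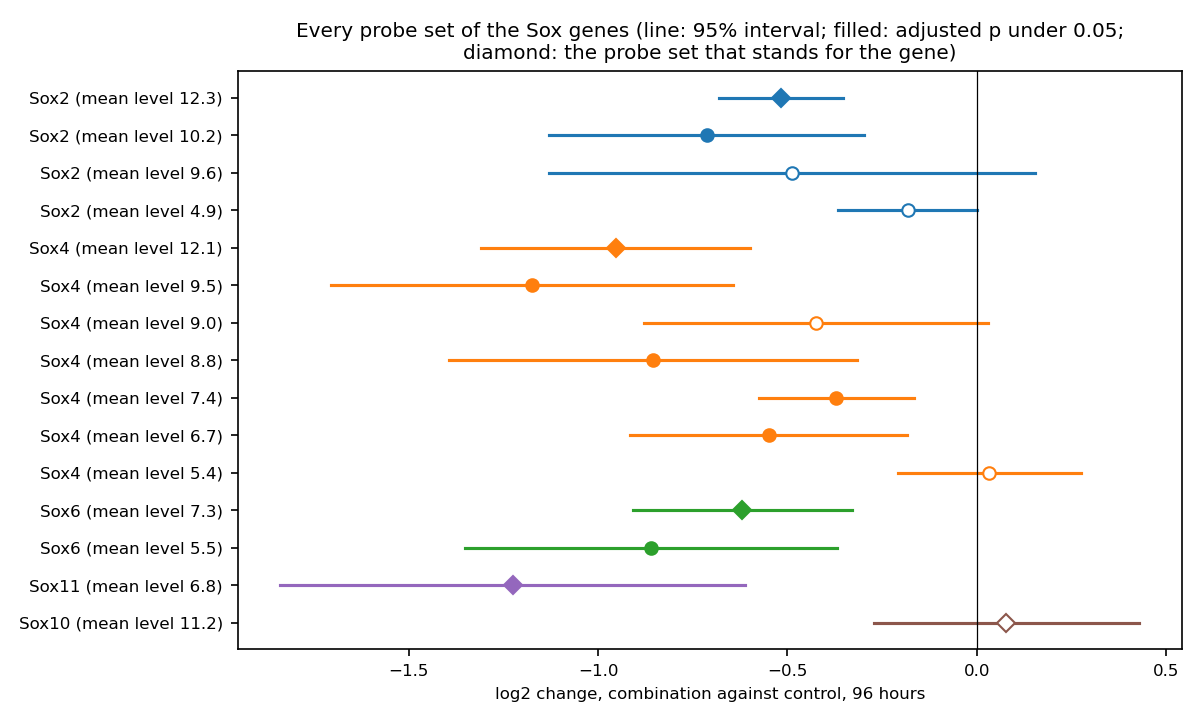
Log2 change with the combination compared to control at 96 hours (x axis) for each of the 15 probe sets of the 5 Sox genes (rows, with the mean log2 expression of the probe set), with 95% intervals from limma, filled where the adjusted p was under 0.05 and a diamond for the probe set that stands for the gene. The 10 filled points all lie below 0, and a dim probe set of Sox4 and that of Sox10 lie just above it.

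As a description over the 8 group means, which come from the same arrays and treatments, Sox2 was most like Sox11 (Pearson r = 0.952) and Sox4 most like Sox6 (0.928). The pairs among Sox2, Sox4, Sox6 and Sox11 had r between 0.792 and 0.952, and Sox10 had r between 0.295 and 0.559 with them. Among 7108 other genes with a mean in the upper part of the array, the patterns nearest to Sox2 were those of Lhfpl3, a membrane protein of OPC (0.993), the zinc transporter Slc39a6 (0.990) and the RNA-binding protein Mex3b (0.989). Nearest to Sox4 were Naa35, a subunit of an N-terminal acetyltransferase (0.995), the LIM domain cofactor Ldb1 (0.991) and the lipid raft protein Flot1 (0.990). Nearest to Sox6 were Mpzl1 (0.987), Maco1 (0.986) and the coatomer subunit Copa (0.980), and to Sox11 Cherp (0.998), the chromatin remodeller Smarcc2 (0.997) and Pdzd4 (0.997). Nearest to Sox10 were the ubiquitin ligase Trim33 (0.981), the nucleoporin Nup58 (0.976) and Zswim6 (0.976).

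Of 9 measured genes whose control regions Sox10 binds in the oligodendrocyte lineage, 7 rose with the combination at 96 hours (13.6% of all probe sets were called higher), 6 with T3 (5.64%) and 6 with quetiapine (3.65%). None fell in these comparisons without the block, though 2 fell with the combination when its replicate 1 was left out. The median change with the combination was 0.59, beside 0.02 over all probe sets. Gjb1, a connexin of myelin, rose by 2.17 (standard error 0.320, adjusted p = 0.000520), Erbb3, a neuregulin receptor, by 1.81 (standard error 0.113, adjusted p = 1.87e-06), the myelin-associated glycoprotein Mag by 1.76 (standard error 0.0812, adjusted p = 2.62e-07) and Myrf, the regulator of myelin genes that works with Sox10, by 0.64 (standard error 0.0842, adjusted p = 0.000243). With the replicate block 7 were higher and 1 lower with each of the 3 treatments (18.5%, 10.3% and 7.98% of all probe sets higher with the combination, T3 and quetiapine). The gene lower with the combination was Pdgfra, the PDGF receptor of precursors (−0.73).

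Of 20 other transcription factors of the lineage, 6 rose and 5 fell with the combination at 96 hours, beside 13.6% and 15.7% of all probe sets, with a median of −0.30. With the replicate block 7 were higher and 10 lower, beside 18.5% and 22.1%. The rises were 3 without replicate 2 or 3 of control, T3 replicate 2 or combination replicate 2. Nkx6-2, a homeobox factor of maturing oligodendrocytes, rose by 2.54 (adjusted p = 1.54e-06 from limma). The Notch targets Hes5 and Hes1, which hold back differentiation, changed by −2.42 (adjusted p = 0.000105) and −1.82 (adjusted p = 0.00227), and Id4, an inhibitor of basic helix-loop-helix factors, by −1.75 (adjusted p = 0.00775). With T3 alone 3 of the 20 rose and 1 fell (5.64% and 6.07% of all probe sets), 2 fell without control replicate 1, and the block gave 3 higher and 5 lower. With quetiapine alone 3 rose and none fell (3.65% and 2.24%), and the block gave 5 higher and 6 lower.

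Of 9 precursor and progenitor genes 6 fell with the combination at 96 hours (15.7% of all probe sets) and none rose, with a median of −0.92. The largest falls were those of the growth factor receptor Egfr (−2.62, adjusted p = 0.00853 from limma), the intermediate filament Vim (−2.4, adjusted p = 0.0011), the intermediate filament Nes (−1.51, adjusted p = 0.00594) and the fatty acid binding protein Fabp7 (−1.27, adjusted p = 1.19e-05). With T3 alone 3 of the 9 fell (6.07%), which became 1 without control replicate 3 or T3 replicate 2, and 8 with the replicate block. With quetiapine alone 1 fell (2.24%), which was lost in 9 of the 12 fits with 1 array left out and became 5 with the block. Of the 6 precursor markers 2 fell, Ptprz1 by 0.89 and Lhfpl3 by 0.81, and Olig1 rose by 0.25 (adjusted p = 0.0413), while none of the 6 rose in 8 of the 12 fits with 1 array left out. The block gave 2 higher and 4 lower.

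Markers of other cell types and states were counted in the same comparison, the combination at 96 hours, in which 13.6% of all probe sets rose and 15.7% fell. All 10 genes of dividing cells fell (median −1.76), with Mki67 at −2.30 and Ccna2 at −2.12, though 4 to 6 passed without 1 of the 3 control arrays or without combination replicate 2 or 3. Their mean log2 expression lay between 9.60 and 9.89 in control, 8.32 and 9.02 with T3, 8.62 and 9.61 with quetiapine, and 7.23 and 9.24 with the combination. Of 10 astrocyte markers 5 fell and 1 rose, with Aldh1l1 at −2.39 (2 or 3 fell without control replicate 2 or 3 or combination replicate 3, and the rise was lost in 9 of the 12 fits with 1 array left out). The block gave 1 higher and 8 lower. The mean of that list was between 10.30 and 10.76 in control and between 9.43 and 9.97 with the combination. Of 10 neuronal markers 4 fell and 2 rose (1 in 9 of those 12 fits), with Dcx, a protein of young neurons, at −1.38, and their mean lay between 8.36 and 8.71 in control and between 7.92 and 8.31 with the combination.

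All 9 measured markers of myelinating oligodendrocytes rose (median 1.76), from a mean between 10.02 and 10.42 in control to one between 11.92 and 12.83. None of 10 microglial markers was called by limma at 96 hours, with or without the block, and their mean lay between 5.03 and 5.77 in control and between 5.17 and 5.36 with the combination. Of 10 vascular and fibroblast markers 2 rose and 1 fell (0 to 2 in either direction with 1 array left out), near the shares of all probe sets. Of 5 Schwann cell markers 2 rose, Mal and Ngfr (0 to 2 with 1 array left out), and 1 fell, Pmp22. RNA quality was read from beta-actin as the log2 value at its 3' end less that at its 5' end, which was 0.643 to 0.665 in control at 96 hours, 0.674 to 0.766 with T3, 0.601 to 0.723 with quetiapine and 0.704 to 0.768 with the combination. The same difference for GAPDH was −0.107 to −0.0565 in control, −0.0756 to −0.0267 with T3, −0.113 to −0.0726 with quetiapine and −0.132 to −0.092 with the combination, so that the combination was higher than control for beta-actin and lower in its mean for GAPDH. The part of these cell types, of division and of RNA quality in the Sox results was not tested.

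**Figure D4:**
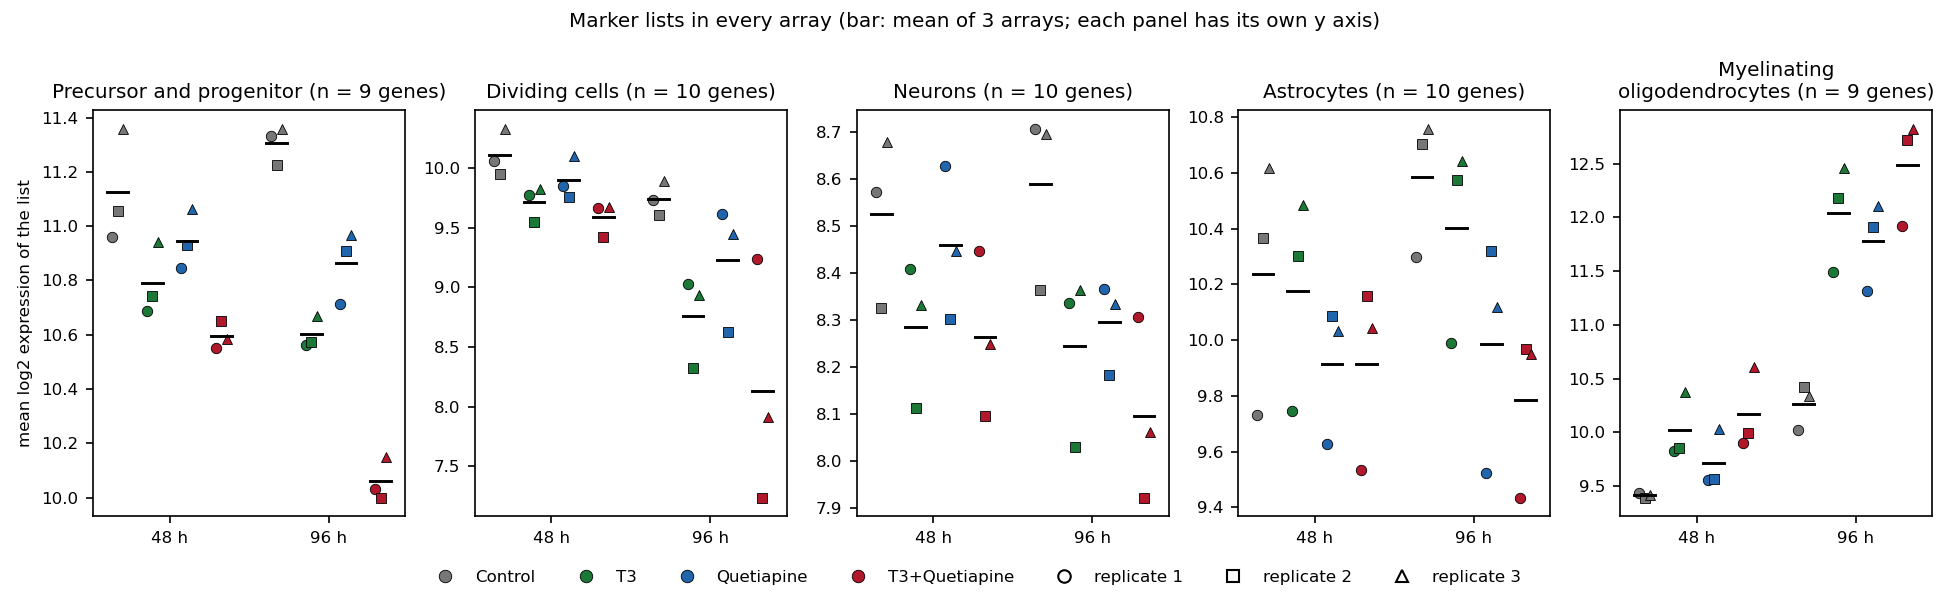
Mean log2 expression (y axis) of 5 gene lists in each of the 24 arrays, by time (x axis) and treatment (colour), with the replicate number as the symbol and bars at the mean of 3 arrays. At 96 hours the combination had the lowest means for precursor and progenitor genes, dividing cells, neurons and astrocytes, and the highest for myelinating oligodendrocytes.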

How the data were processed

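The authors deposited log2 expression values of 24 arrays, made from the array signals by RMA, and the submitters' processing notes name RMA and limma; versions and the genome build are not given in the sources used here. Cultures from before treatment were not used here. Of 31099 probe sets, 57 array controls were left out. Of the 31042 tested, 20826 carried 1 gene symbol, 436 several and 9780 none, and symbols came from the array's annotation. Limma 3.58.1 in R 4.3.3 was run separately for 48 and 96 hours (12 arrays, 1 mean per group, no block), and on all 24 arrays for contrasts between times, and the fit was tested on simulated data. The members and gene lists were chosen with earlier results of these data known.

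The text names all members, the other Sox genes called at 96 hours, the 3 nearest patterns for each member, and up to 4 called genes of a list. A few further genes were named after their values were seen. The deposited design has each biological replicate supply every condition, so replicate numbers pair the arrays. Departures from the group means were compared, and they correlated at 0.430 to 0.777 between the 18 pairs of same-numbered arrays at 48 hours and at 0.309 to 0.690 at 96 hours. Without the block, variation between preparations counts as error, and a missed call is no evidence of equal levels. Precision is limited by 3 arrays per group. Alternatives were the replicate block, arrays centred on their medians, the dimmest 25% of probe sets left out, an intensity trend, the mean of a gene's probe sets, 1 fit over all arrays, and each array left out in turn. The fits with 1 array left out had no block, so calls made only with the block were not checked in this way. Protein and promoter sequences of the members were not analysed here.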

Additional observations from a re-analysis of the deposited data

Results flagged for a closer look

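The change of Sox2 with the combination compared to control differed between 96 and 48 hours by −0.40 on the log2 scale (adjusted p = 0.0393 from limma over all 24 arrays), by the test of that difference itself. It passed in 17 of 24 fits with 1 array left out and with the replicate block (adjusted p = 0.0143), and not with arrays centred on their medians (0.0732) or with the mean of the Sox2 probe sets (0.272). The change at 48 hours was −0.12 and at 96 hours −0.52.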

How the results depend on the processing

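The 4 calls with the combination compared to control at 96 hours, and the 3 from 48 to 96 hours in the combination, stood under every alternative run. The replicate block changed the number of members called in 13 of 21 comparisons, to 1 for T3 and 2 for the combination compared to control, 2 for quetiapine compared to T3 and 2 for the combination compared to quetiapine at 48 hours, to 3 for T3, 3 for quetiapine, 1 for quetiapine compared to T3, 2 for the combination compared to T3 and 5 compared to quetiapine at 96 hours, and, between the times, to 1 in control, 1 in T3, 1 in quetiapine and 5 in combination cultures. It changed no other count. With the lowest 25% of probe sets left out, 2 members were called for T3 at 96 hours (Sox2 and Sox11). With the mean of a gene's probe sets the count was 0 for T3 at 96 hours, 0 for the combination compared to quetiapine at 96 hours and 0 for the change with the combination at 96 less 48 hours, which was also 0 with arrays centred on their medians. With 1 array left out, counts ranged from 0 to 1 for T3 at 96 hours, 0 to 1 for the combination compared to T3, 0 to 3 for the combination compared to quetiapine and 0 to 3 for the change at 96 less 48 hours. The causes were not tested.

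With the mean of a gene's probe sets 3 log2 changes near 0 took the other sign, Sox6 with quetiapine at 48 hours (−0.0414) and quetiapine compared to T3 at 96 hours (−0.0449), and Sox4 in the interaction at 48 hours (0.0019). With 1 array left out 32 of 105 changes took the other sign at least once, none larger than 0.23 or with an adjusted p under 0.763. The lowest and highest values for T3 compared to control at 48 hours were −0.18 and 0.032 for Sox4, −0.015 and 0.16 for Sox6 and −0.29 and 0.026 for Sox10. Quetiapine compared to control at 48 hours gave −0.013 and 0.13 for Sox2, −0.069 and 0.10 for Sox6 and −0.42 and 0.20 for Sox11. Combination compared to control at 48 hours gave −0.18 and 0.15 for Sox6 and −0.17 and 0.14 for Sox10. Quetiapine compared to T3 at 48 hours gave −0.14 and 0.028 for Sox6. Combination compared to T3 at 48 hours gave −0.25 and 0.084 for Sox6, −0.038 and 0.26 for Sox10 and −0.36 and 0.072 for Sox11. Combination compared to quetiapine at 48 hours gave −0.32 and 0.043 for Sox4 and −0.19 and 0.14 for Sox6. The interaction at 48 hours gave −0.094 and 0.047 for Sox2, −0.23 and 0.14 for Sox4, −0.27 and 0.068 for Sox6, −0.27 and 0.044 for Sox10 and −0.38 and 0.24 for Sox11. T3 compared to control at 96 hours gave −0.18 and 0.11 for Sox10. Quetiapine compared to control at 96 hours gave −0.14 and 0.047 for Sox6. Combination compared to control at 96 hours gave −0.069 and 0.22 for Sox10. Quetiapine compared to T3 at 96 hours gave −0.24 and 0.067 for Sox4 and −0.043 and 0.15 for Sox6. The interaction at 96 hours gave −0.30 and 0.0086 for Sox4 and −0.093 and 0.43 for Sox11. Control at 96 compared to 48 hours gave −0.10 and 0.037 for Sox2 and −0.43 and 0.25 for Sox11. T3 compared to control at 96 less 48 hours gave −0.058 and 0.26 for Sox10. Quetiapine compared to control at 96 less 48 hours gave −0.16 and 0.031 for Sox6 and −0.067 and 0.25 for Sox10. Combination compared to control at 96 less 48 hours gave −0.061 and 0.25 for Sox10.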
